A study of Homo sapiens with 6 samples.

Results

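The genes described here encode alkaline phosphatases and the enzymes that act beside them on phosphate esters and nucleotides at the cell surface: ALPP, ALPG, ALPI and ALPL (alkaline phosphatases), NT5E, ENPP1, ENPP2, ENTPD1, ENTPD2 and ENTPD3. They were chosen by name, 10 in all, and 9 of them had a row among the 29185 genes of the deposited table. ALPI, the intestinal alkaline phosphatase, had none and its level was not analysed here. ALPP was among the genes that the study selected on these samples for qPCR, so its direction here is not independent evidence.

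SKOV3, a human ovarian cancer line long kept in culture, was the cell type. Stable SKOV3 lines made with pLKO vectors, a lentiviral shRNA backbone, and selected with puromycin were compared after poly(A) RNA sequencing. The sh-KLF5 group (genotype given as KLF5 knockdown) and the control sh-NC group (genotype given as WT) had 3 libraries each. The comparison asks what changed in RNA level when KLF5, a zinc finger transcription factor, was silenced. No drug treatment was given in the labels for either group. The shRNA sequence behind the sequenced line and the number of clones were not given in the sources used here. Nothing states that the 3 libraries of a group came from separate infections, so p-values measure the spread between these libraries, which may be technical.

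Alkaline phosphatases remove phosphate from many substrates outside the cell and are held on the membrane by a glycosylphosphatidylinositol (GPI) anchor, a lipid and sugar tail attached in the endoplasmic reticulum. Extracellular ATP is cut stepwise: ENTPD enzymes remove phosphates to give AMP, NT5E (CD73, also GPI-anchored) turns AMP into adenosine, and ENPP1 splits ATP into AMP and pyrophosphate, which the tissue-nonspecific alkaline phosphatase ALPL hydrolyses. ENPP1 and the ENTPD enzymes span the membrane by protein segments and ENPP2 (autotaxin) is secreted, so only the phosphatases and NT5E of these genes carry the anchor.

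KLF factors are known to bind CACCC-type and GC-rich DNA. The promoter windows below show the 3 neighbouring phosphatase genes of chromosome 2 and ENPP1, since ALPP and ENPP1 are the genes of the group that were called lower. Each is the 250 bases before the RefSeq start on GRCh38.p14, plus strand, 5′ to 3′, with CACCC and its reverse complement GGGTG in capitals. The positions are chr2:232378501-232378750 for ALPP, chr2:232406594-232406843 for ALPG, chr2:232455903-232456152 for ALPI and chr6:131807770-131808019 for ENPP1.
ALPP: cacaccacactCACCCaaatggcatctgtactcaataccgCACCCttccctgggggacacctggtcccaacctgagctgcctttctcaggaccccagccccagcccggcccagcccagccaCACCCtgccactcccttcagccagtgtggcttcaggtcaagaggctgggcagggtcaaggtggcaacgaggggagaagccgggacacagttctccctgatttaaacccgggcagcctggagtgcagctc
ALPG: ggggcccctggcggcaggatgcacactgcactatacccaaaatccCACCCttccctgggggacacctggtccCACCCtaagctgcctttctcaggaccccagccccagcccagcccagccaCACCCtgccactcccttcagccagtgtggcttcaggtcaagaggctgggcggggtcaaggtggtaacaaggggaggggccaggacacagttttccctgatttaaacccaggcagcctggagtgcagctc
ALPI: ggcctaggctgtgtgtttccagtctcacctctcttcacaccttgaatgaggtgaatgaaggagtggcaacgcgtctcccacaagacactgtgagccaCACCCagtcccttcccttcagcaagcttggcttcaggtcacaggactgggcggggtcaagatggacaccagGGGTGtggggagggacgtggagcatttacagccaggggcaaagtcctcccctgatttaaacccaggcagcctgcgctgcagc
ENPP1: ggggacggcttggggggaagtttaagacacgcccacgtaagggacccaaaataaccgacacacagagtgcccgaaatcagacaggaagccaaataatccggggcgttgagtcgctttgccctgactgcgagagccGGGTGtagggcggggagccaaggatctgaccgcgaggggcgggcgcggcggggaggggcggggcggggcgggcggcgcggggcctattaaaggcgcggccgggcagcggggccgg

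The ALPP and ALPG windows each held 3 matches to CACCC on either strand, the ALPI window 2 and the ENPP1 window 1. Among the windows not shown, those of NT5E and ENTPD3 held 1 each, that of ENTPD2 none, the 5 windows of ENTPD1 0 to 2 and the 3 of ALPL 0 to 4. Of 35116 promoter windows of the same length in the RefSeq table, 54.7% held at least 1 match, so a match is common. The GC box GGGCGG, searched on both strands, was found 8 times in the ENTPD2 window, 6 times in that of ENPP1, 4 times in that of ENTPD3, 2 times in that of NT5E and once in those of ALPG and ALPI. It was not found in the windows of ALPP and ENTPD1, 1 of the 3 ALPL windows held 4 matches, and 42.6% of all windows held it. Over the aligned bases, the ALPP window was 88.5% identical to that of ALPG and 71.5% identical to that of ALPI. GENCODE 29, the annotation whose gene positions match the table, places the start of ALPP 217 bases before the RefSeq start, inside the window shown. These matches describe the letters of the windows, and binding was not measured here.

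Library totals, recovered from the deposited values, were 15852319 to 17543896 reads in sh-NC and 16009859 to 16871350 reads in sh-KLF5, where 3 reads make 0.171 to 0.189 CPM (reads scaled to a common library size). In the control libraries KLF5 itself averaged 4430.1 ± 61.3 normalized counts, against 1540.2 ± 177 after silencing (SD, n = 3 each), a log2 fold change of -1.53 with no overlap between groups. Within sh-KLF5, replicate 1 stood further from the others (chi-square per degree of freedom 23.5 and 30.4) than replicates 2 and 3 from each other (10.4). The ovarian carcinoma markers PAX8, EPCAM, KRT7, KRT8 and KRT18 were present in every library, and PTPRC, which marks leukocytes, had at most 1 read. Of 5 fibroblast markers 3 were called lower (DCN, and COL1A2 and PDGFRA, which passed the filter on low counts only through sh-NC), whose list summed to between 647 and 1029 normalized counts in sh-NC libraries, and between 259 and 585 in those of sh-KLF5. Of 7 epithelial markers with a row, 2 were called lower (KRT8 and MUC16), with sums of 51969 to 63604 and 27094 to 37050. Over all tested genes 3.37% were called lower. The count of fibroblast calls is a description, since COL1A2 and PDGFRA were tested only through sh-NC. The part of these markers in the results below was not tested.

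Normalized counts are reads per gene after division by a single factor for each library. A gene was called when limma gave a Benjamini-Hochberg adjusted p under 0.05 over the 15803 genes tested and the log2 fold change of (normalized count + 1), sh-KLF5 minus sh-NC, was above 1 or below -1. Of the 9 genes with a row, 5 had enough reads to be tested. Called lower were 2 of them, ALPP and ENPP1, where 3.37% of all tested genes were called lower. None was called higher by limma, edgeR or DESeq2, where limma called 1.90% of all tested genes higher; 1 was higher at an unadjusted p under 0.05 (NT5E). The remaining 4 (ALPG, ALPL, ENPP2 and ENTPD3) had at most 5 reads in every library. The median log2 fold change of the 5 tested genes was -0.11, beside -0.0023 for all tested genes. ENPP1 passed the filter on low counts only through the sh-NC libraries, where it was higher, so the count of called genes and the median are descriptions. All 3 sh-KLF5 libraries were below all 3 sh-NC libraries for 2 of the tested genes, where 15.9% of all tested genes were, and above them for 1, where 15.4% were (31.3% in either direction).

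**Figure D1:**
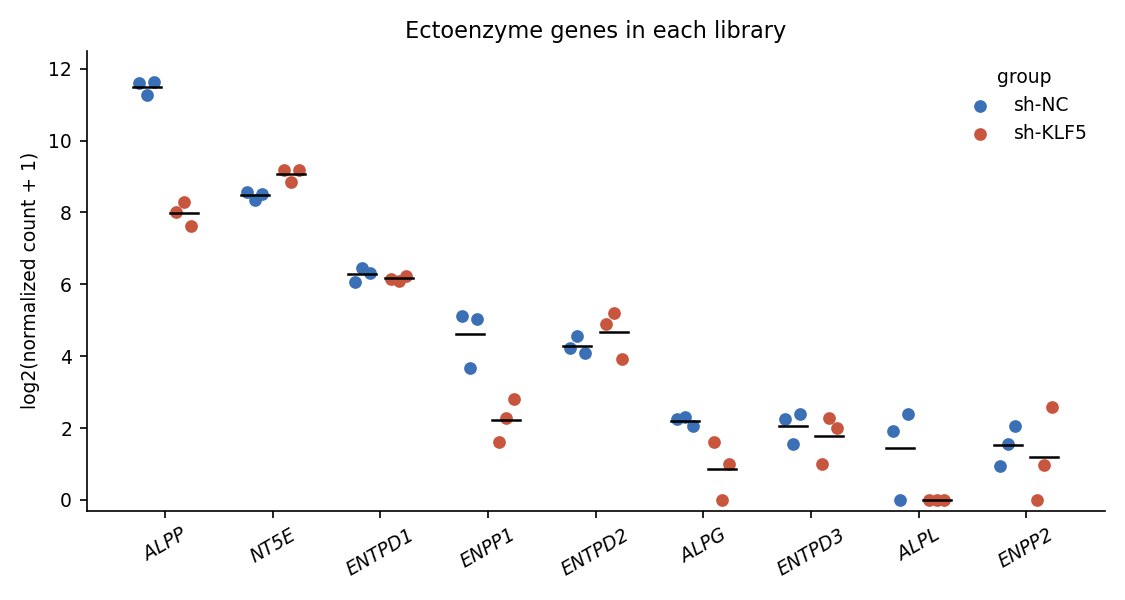
Level of the 9 genes in each library, as log2(normalized count + 1); each point is 1 library, bars are the means of the 3 libraries of sh-NC (blue) and sh-KLF5 (red). ALPP stands lower in all 3 sh-KLF5 libraries, NT5E higher in all 3, and ALPG, ENTPD3, ALPL and ENPP2 lie at the bottom with at most 5 reads.

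ALPP, the placental alkaline phosphatase, is normally restricted to placenta and a few other sites and is known as an ectopic antigen of some ovarian and germ cell tumours. Its gene (ENSG00000163283, chr2:232378534-232382889, plus strand, GRCh38) had the highest level of the group in the control cells. Replicates 1 to 3 of sh-NC held 3098, 2480.1 and 3189 normalized counts, while those of sh-KLF5 held 257, 313 and 195. The highest sh-KLF5 library was therefore far under the lowest sh-NC library, and the groups did not overlap. The means were 2922 ± 385 and 254.9 ± 59.5 normalized counts (SD, n = 3 each), so that 8.72% of the control level was left and ALPP fell 11.5-fold. On the log2 scale the change was -3.53 (95% interval -3.87 to -3.19), with a limma Benjamini-Hochberg adjusted p of 9.40e-10, and ALPP ranked 4 by p among all tested genes. RNA from 769 reads stood behind the sh-KLF5 values, against 8849 in sh-NC, so ALPP remained well above the limit of 3 reads. In bulk RNA, fewer cells expressing ALPP and less ALPP RNA per cell cannot be told apart.

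ALPG, the germ cell alkaline phosphatase, lies next to ALPP (ENSG00000163286, chr2:232406843-232410714). It had 4, 4 and 3 reads in sh-NC and 2, 0 and 1 in sh-KLF5, and was not tested. The groups did not overlap, but the counts are near the limit that a count of 0 allows and no fold is given. ALPL, the tissue-nonspecific form of bone, liver and kidney (ENSG00000162551, chr1:21509372-21578412), had 3, 0 and 4 reads in sh-NC and 0 in each sh-KLF5 library. Summed over the phosphatase genes of the table, the control level was 2928 ± 387 normalized counts and the level after silencing 255.9 ± 59.0 (two-sided exact permutation p = 0.1, which is the lowest value 3 against 3 libraries can give). ALPP made up 99.8% of the alkaline phosphatase reads in sh-NC and 99.6% in sh-KLF5.

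ALPP and ALPG are close copies, and how reads that fit both were counted is not given in the sources used here. The main transcripts, ALPP-201 and ALPG-201, were 91.6% identical over their aligned bases, against 84.9% for ALPP with ALPI and 64.8% with ALPL. Of the windows of 50 bases along ALPP-201, 24.5% occurred unchanged in ALPG, falling to 13.2% of windows of 100 bases and 7.05% of windows of 150 bases. Most stretches of ALPP of these lengths therefore differ from ALPG in at least 1 base. ALPP also shares 631 exonic bases, 20.6% of its exonic length, with the antisense gene AC068134.1, which was not analysed here. The strand setting of the counting was not given, so reads from the 2 strands cannot be told apart in that stretch.

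The study's qPCR primers for ALPP are shown because both also match ALPG; each is written 5′ to 3′ as listed, in lower case throughout.
hALPP-F: gtcagtgggagtggtaacca
hALPP-R: acatgtactttcggcctcca

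The forward primer matched ALPP-201 at positions 758 to 777 and the reverse primer its opposite strand at 938 to 957, counted from 1 at the transcript's 5′ end, which gives a product of 200 bases. Without a mismatch they also matched ALPG-201 at 532 to 551 and 712 to 731, and the forward primer also matched AC068134.1. In ALPI each primer had at least 2 mismatches, and in ALPL 6 for the forward and 4 for the reverse primer. In these libraries ALPG had 11 reads in all of sh-NC, beside 8849 for ALPP.

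NT5E (CD73), which makes adenosine from AMP, was higher in the sh-KLF5 libraries (ENSG00000135318, chr6:85449584-85495791, plus strand). Control levels were 379.9, 325 and 365 normalized counts, and those after silencing 584, 458 and 576. Every sh-KLF5 library was above every sh-NC library. From a mean of 357 ± 28.3 to 539 ± 70.4 normalized counts (SD, n = 3 each), the ratio was 1.51 and the log2 fold change 0.59 (95% interval 0.29 to 0.88). The limma Benjamini-Hochberg adjusted p was 0.00934, and the gene was not called because the change was under the fold threshold. With no fold threshold, NT5E was the 1 gene of the group that passed upward, where 6.04% of all tested genes did; ALPP and ENPP1 passed downward, where 6.85% did, and 12.9% passed in either direction. Without sh-NC replicate 2 the adjusted p was 0.0724 at a log2 fold change of 0.52.

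Per kilobase of exon, which allows genes to be compared, ALPP stood far above NT5E in the control cells and near it in the silenced cells. The sh-NC means were 955 ± 126 normalized counts per kb for ALPP and 78.7 ± 6.24 for NT5E, and the sh-KLF5 means were 83.3 ± 19.4 and 119 ± 15.5. The ratio of ALPP to NT5E per kb was 12.1, 11.3 and 12.9 in the sh-NC libraries and 0.652, 1.01 and 0.501 in the sh-KLF5 libraries. It lay under 1 in 2 of the 3 silenced libraries and above 1 in all 3 controls (two-sided exact permutation p = 0.1, again the lowest value possible). The next level down was that of ENTPD1 at 11.1 ± 1.49 in sh-NC and 10.2 ± 0.454 in sh-KLF5, followed by ENTPD2 at 7.12 ± 1.33 and 9.94 ± 4.23. These neighbours did not overlap in sh-NC, but in sh-KLF5 ENTPD2 spanned 5.33 to 13.6 and took in the whole range of ENTPD1. ENPP1 followed at 2.58 ± 1.21 in sh-NC, and at 0.399 ± 0.200 in sh-KLF5 it lay among the 4 genes with few reads.

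**Figure D2:**
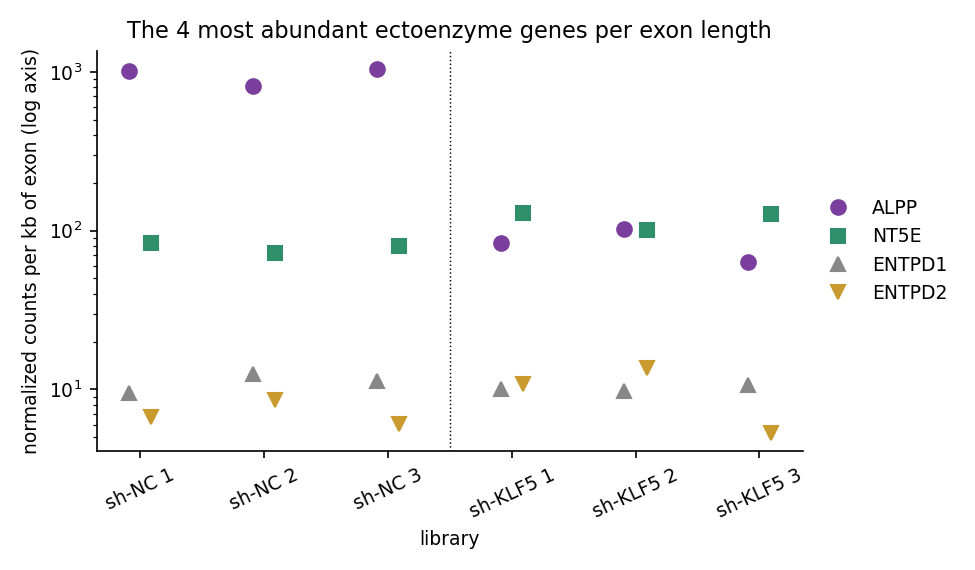
Level of ALPP, NT5E, ENTPD1 and ENTPD2 per kilobase of exon (normalized counts, log axis) in each of the 6 libraries, with 1 point per gene and library. ALPP lies above NT5E in the 3 sh-NC libraries, while in sh-KLF5 it lies under NT5E in replicates 1 and 3 and level with it in replicate 2.

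ENPP1, which forms pyrophosphate from ATP and also hydrolyses the signalling dinucleotide cGAMP, was a gene of low level (ENSG00000197594, chr6:131808016-131895155, plus strand). Control libraries had 36, 12 and 30 reads and silenced ones 2, 4 and 6. As normalized counts these were 33.5, 11.8 and 31.8 against 2.04, 3.88 and 6.02. The groups did not overlap, and sh-NC replicate 2 was the control closest to the silenced libraries. ENPP1 fell 6.47-fold, from 25.7 ± 12.1 to 3.98 ± 1.99 normalized counts (SD, n = 3 each), with a log2 fold change of -2.38 (95% interval -3.52 to -1.23) and a limma Benjamini-Hochberg adjusted p of 0.00691. Since only the sh-NC libraries carried it past the filter on low counts, the interval, the adjusted p and the call describe these libraries and are no firm test. The call was lost without sh-NC replicate 1 (adjusted p = 0.0646) and without sh-NC replicate 3 (adjusted p = 0.0692). It rests on 78 reads in sh-NC and 12 in sh-KLF5.

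ENPP2 (autotaxin), which makes lysophosphatidate, a lipid ligand of the LPAR receptors, had 1, 2 and 3 reads in sh-NC and 0, 1 and 5 in sh-KLF5. These ranges overlap and a difference was not detectable at this depth.

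ENTPD1 (CD39), the first enzyme on ATP in many tissues, showed no call (ENSG00000138185, chr10:95711779-95869695, plus strand). Control values of 66.1, 86.7 and 78.5 normalized counts overlapped with 70.3, 67.9 and 74.2 in the silenced libraries. The log2 fold change was -0.11 with a 95% interval from -0.57 to 0.34 (limma, Benjamini-Hochberg adjusted p = 0.787), which leaves room for a change in either direction. Its antisense gene ENTPD1-AS1, which shares 6.51% of the exonic bases of ENTPD1, was at 198 ± 9.29 and 156 ± 20.3 normalized counts (log2 fold change -0.35, limma adjusted p = 0.196).

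ENTPD2, which acts mainly on ATP and leaves ADP (ENSG00000054179, chr9:137048098-137054045, minus strand), had 19, 23 and 15 reads in sh-NC and 28, 37 and 14 in sh-KLF5. The lowest and the highest library were both of sh-KLF5. Its log2 fold change was 0.38 (95% interval -0.46 to 1.21, limma adjusted p = 0.589) and moved between 0.11 and 0.76 as each library was left out. ENTPD3, a related enzyme (ENSG00000168032, chr3:40387156-40428744), had 4, 2 and 4 reads in sh-NC and 1, 4 and 3 in sh-KLF5, ranges that overlap. Its antisense gene ENTPD3-AS1 shares 3.54% of its exonic bases and was not called (log2 fold change 0.41, limma adjusted p = 0.518). The exons of ENPP1 (0.944%), ENPP2 (2.41%) and ENTPD1 (2.48%) also share a small part of their bases with AL139805.1, CYCSP23 and AL365273.2.

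Of 12 genes with a row within 250 kb of ALPP, itself included, 5 were tested. None of the 4 tested besides ALPP was called, where 5.28% of all tested genes were called in either direction. With so few genes, the lack of a call is a description of this stretch. DIS3L2, an RNA exonuclease gene upstream, averaged 504 ± 58.0 normalized counts in control libraries and 459.8 ± 54.4 in silenced ones (log2 fold change -0.13). EIF4E2, which encodes a cap-binding protein, was at 484 ± 28.3 and 468 ± 23.1 (-0.05). TIGD1, derived from a transposable element, was at 86.6 ± 22.6 and 77.2 ± 5.83 (-0.13). EFHD1, which encodes a calcium-binding protein of mitochondria, was at 54.2 ± 12.05 and 36.0 ± 12.7 (-0.61, limma Benjamini-Hochberg adjusted p = 0.213). The groups overlapped for each of these 4 genes. The other 7 (AC068134.3, ALPG, ECEL1, PRSS56, CHRND, CHRNG and AC073254.1) had too few reads to be tested.

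**Figure D3:**
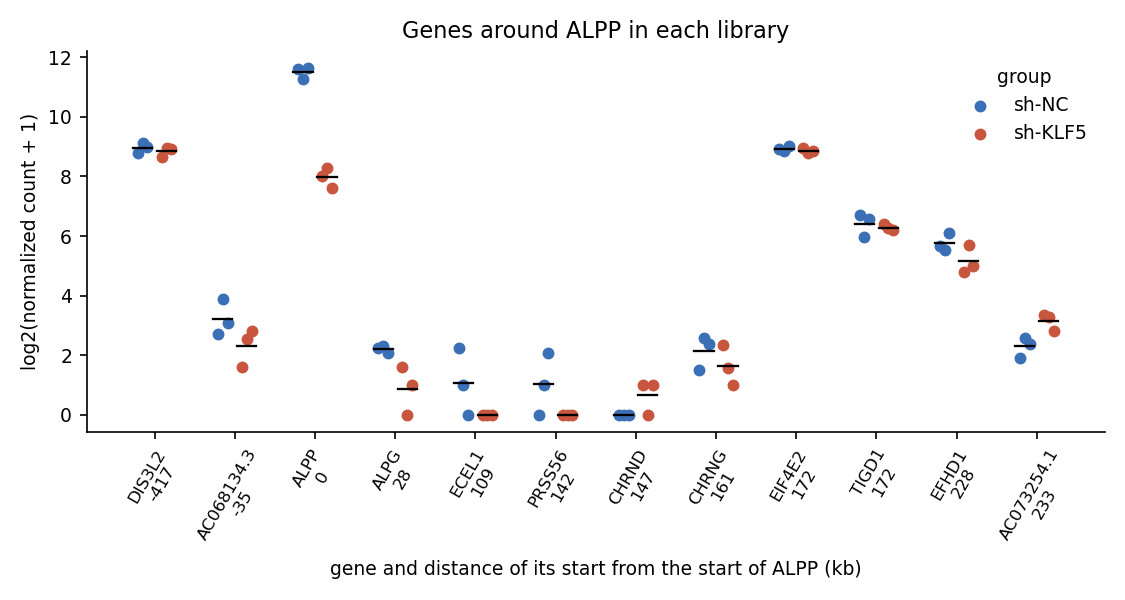
Genes with a row within 250 kb of ALPP, ordered by the distance of their start from that of ALPP (kb, under each name), with log2(normalized count + 1) in each library; points are libraries and bars are means of 3. ALPP is the gene whose groups stand furthest apart, and DIS3L2, EIF4E2 and TIGD1 have sh-KLF5 values inside or beside the sh-NC range.

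By the smallest Euclidean distance between mean-centred log2 profiles over the 6 libraries, among 10658 genes with a mean of at least 100 normalized counts, the 5 genes most like ALPP were NES, SPRY1, TBX2, FKBP10 and DDR2. Their distances ran from 0.695 to 0.989. NES (nestin, an intermediate filament protein) was at 1114 ± 93.0 and 126 ± 14.4 normalized counts. SPRY1, an inhibitor of receptor kinase signalling, was at 219 ± 34.5 and 15.9 ± 6.87. TBX2, a T-box transcription factor, was at 856 ± 155 and 111 ± 14.4. FKBP10, a prolyl isomerase of the endoplasmic reticulum, was at 227 ± 23.7 and 21.6 ± 3.86. DDR2, a collagen-binding receptor kinase, was at 789.8 ± 140.1 and 51.9 ± 8.06. All 5 lie on other chromosomes, and the likeness is mostly that of the difference between the groups, which they share by the choice. Like ALPP, NES and TBX2 were among the genes that the study selected on these samples for qPCR.

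No call was made in a list of other purine enzymes and carriers, not all of which act outside the cell (ENTPD4, below, is a Golgi enzyme). Of its 29 named genes, 20 had a row, 13 were tested and none was called in either direction, where 5.28% of all tested genes were (median log2 fold change 0.21). The count tests edgeR and DESeq2 also called 0 of them, and at an unadjusted limma p under 0.05 there were 4 higher and 1 lower. PANX1, a channel that releases ATP, was at 1005 ± 63.9 and 1033 ± 139.7 normalized counts, and ENTPD4, a Golgi nucleotidase, at 912 ± 47.1 and 957 ± 88.5. With no fold threshold 3 passed upward, named here after their values were seen: ENTPD5 (0.54), ENTPD7 (0.56) and AK1 (0.68), with limma adjusted p of 0.00467, 0.00969 and 0.0427.

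Of 21 purine receptors, 18 had a row, 9 were tested, 1 was called higher and none lower (by limma, edgeR and DESeq2 alike, with 0 lower at an unadjusted p under 0.05), with a median log2 fold change of 0.57. Over all tested genes 1.90% were called higher and 3.37% lower. P2RX5, an ATP-gated channel, rose from 55.2 ± 4.51 to 123 ± 28.8 normalized counts, with a log2 fold change of 1.12 (limma Benjamini-Hochberg adjusted p = 0.00287). Its reads were 54, 60 and 53 in sh-NC and 92, 128 and 151 in sh-KLF5, and without sh-KLF5 replicate 3 the change was 0.96, under the threshold. ADORA2B, the low-affinity adenosine receptor, was at 269 ± 10.6 and 427 ± 21.2 normalized counts (log2 fold change 0.66, limma adjusted p = 0.00257) and did not reach the fold threshold. P2RX4, another ATP-gated channel, was at 447 ± 48.9 and 551 ± 31.4 (0.31, limma adjusted p = 0.145). Of the 9 tested receptors, 4 (ADORA1, ADORA2B, P2RX4 and P2RX5) had every sh-KLF5 library above every sh-NC library, none had every one below, and 5 overlapped; over all tested genes 15.4% were above and 15.9% below. P2RY1, a receptor for ADP named after its values were seen, had 9, 13 and 11 reads in sh-NC and 0, 0 and 4 in sh-KLF5, too few to be tested.

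On the side of phosphate and pyrophosphate, 12 genes were named, 10 had a row and 9 were tested (median log2 fold change -0.04). None was called by limma, edgeR or DESeq2, where limma called 5.28% of all tested genes in either direction. At an unadjusted limma p under 0.05 there were 0. SLC20A1, a sodium-phosphate carrier, was at 3645 ± 189 and 3538 ± 194 normalized counts, and PPA1, a cytosolic pyrophosphatase, at 2447 ± 134 and 2929 ± 519. ANKH, which acts in the release of ATP and pyrophosphate and was named after its value was seen, had a log2 fold change of -0.09 (limma adjusted p = 0.643).

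Among 14 genes of lysophosphatidate signalling, 12 had a row and 8 were tested, with 1 called in each direction (1.90% higher and 3.37% lower over all tested genes) and a median log2 fold change of 0.26. LPAR1, a receptor for lysophosphatidate, rose from 81.5 ± 24.1 to 202 ± 40.8 normalized counts (log2 fold change 1.32, limma Benjamini-Hochberg adjusted p = 9.94e-04). PLPPR3, a membrane protein related to the lipid phosphatases and known in neurons, fell from 48.6 ± 15.2 to 3.66 ± 0.569, with 50, 35 and 61 reads in sh-NC and 4, 4 and 3 in sh-KLF5 (log2 fold change -3.38, limma adjusted p = 3.76e-05). It passed the filter on low counts only through sh-NC, where it was higher, so its call is a description, and with 10 reads required in every library the list had 0 lower calls. The genes of highest level, PLPP2 and PLPPR2, were not called, with log2 fold changes of 0.14 and 0.24.

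The list of genes for assembly and release of the GPI anchor was measured almost in full. Of 34 named genes 33 had a row and 32 were tested, with a median log2 fold change of 0.04. By limma, edgeR and DESeq2 alike, 1 was called lower and none higher. At an unadjusted limma p under 0.05 there were 4 higher and 2 lower. The 1 lower call stands beside 3.37% lower over all tested genes, and 1.90% of these were called higher. PIGS, a subunit of the transamidase that joins the anchor to proteins, fell from 1138 ± 152 to 464 ± 42.4 normalized counts (log2 fold change -1.29, limma Benjamini-Hochberg adjusted p = 5.26e-06). PIGT, of the same complex, was at 3727 ± 295 and 3413 ± 306 (-0.13, limma adjusted p = 0.533). GPAA1, also of the complex, was at 1971 ± 193 and 2569.6 ± 117 (0.39, limma adjusted p = 0.0357) and under the fold threshold.

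Of 67 other genes listed for GPI-anchored surface proteins, 51 had a row and 36 were tested, with 4 called lower and 2 higher and a median log2 fold change of -0.05, where 3.37% of all tested genes were called lower and 1.90% higher. PSCA, prostate stem cell antigen, fell from 289.7 ± 48.1 to 57.6 ± 16.1 normalized counts (log2 fold change -2.33), and CDH13, a cadherin without a membrane-spanning segment, from 1863 ± 89.3 to 917 ± 93.2 (-1.03). The CDH13 change was -0.99 without sh-NC replicate 2 and -0.95 without sh-KLF5 replicate 1, both under the fold threshold. THY1 (CD90), a marker of fibroblasts among other cells, had 108, 53 and 56 reads in sh-NC and 0, 1 and 1 in sh-KLF5. GPC5, a glypican, had 22, 29 and 21 reads in sh-NC and 0, 0 and 2 in sh-KLF5. THY1 and GPC5 passed the filter on low counts only through sh-NC, so their calls are descriptions, and with 10 reads required in every library 2 lower calls were left in the list. TFPI, a coagulation inhibitor of which 1 form carries the anchor, rose from 829.5 ± 103 to 2601 ± 645 (log2 fold change 1.63), and SEMA7A, a semaphorin, from 25.7 ± 2.66 to 69.9 ± 5.30 (1.41). The limma Benjamini-Hochberg adjusted p of PSCA, CDH13, TFPI and SEMA7A ran from 1.92e-06 for PSCA to 0.00128 for SEMA7A. At the highest level were the complement regulator CD55, at 6917 ± 129 and 4005 ± 568 (-0.80, limma adjusted p = 2.71e-04), and CD109, at 4599.6 ± 213 and 3485 ± 558 (-0.41, limma adjusted p = 0.0399), both under the fold threshold.

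**Figure D4:**
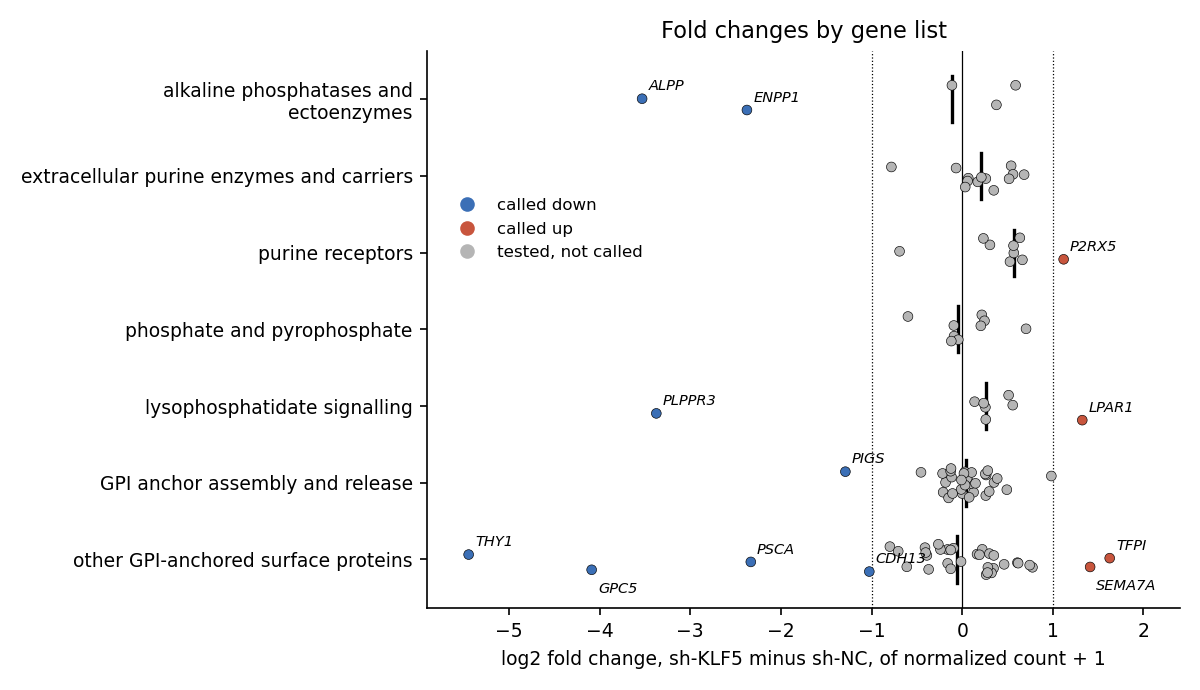
Log2 fold change (sh-KLF5 minus sh-NC) of each tested gene in 7 groups of genes; each point is 1 gene, coloured when called lower (blue) or higher (red), black bars are medians and dotted lines mark the fold threshold. The medians lie between -0.11 and 0.57, and ALPP and ENPP1 stand apart from the other tested ectoenzyme genes. The positions of genes with few sh-KLF5 reads depend on the count added before the log. THY1 and GPC5 had at most 2 reads per sh-KLF5 library and PLPPR3 at most 4. ENPP1 was at -2.65 with 0.1 added and at -1.71 with 5 added.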

How the data were processed

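Poly(A) RNA of 3 sh-NC and 3 sh-KLF5 SKOV3 libraries was analysed, grouped by the sample labels. The authors deposited a table covering 29185 genes, in which each library has a normalized signal, namely reads per gene after division by a single library factor. The deposited table also holds the authors' group means, log2 fold changes, p-values and gene lengths, of which only the lengths were used. The submitters' processing notes list HISAT2 2.0.5, featureCounts 1.5.0-p3, DESeq2 1.20.0 and hg38. Strand and multi-mapping settings were not given in the sources used here. All values (100%, within 1e-06 reads) were whole multiples of 1 read, so reads were recovered.

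With R 4.3.3, limma 3.58.1 (robust, trended variance prior) was fitted to log2(normalized count + 1) after edgeR's filterByExpr (minimum count 10), with Benjamini-Hochberg adjustment across 15803 genes and calls at adjusted p under 0.05 and a log2 fold change beyond 1. Such fold changes understate those of genes with few reads. Alternatives were edgeR 4.0.16 and DESeq2 1.42.0 on the recovered reads, other scalings, pseudocounts and filters, no fold threshold, a replicate block and leaving out each library. The script was tested on simulated counts. Limits at 0 reads (3 reads) cover counting error only.

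Positions and exons came from GENCODE 29 on GRCh38, which gave the start and end of 29180 of the genes (99.98%); promoters came from RefSeq GRCh38.p14. The members and lists were chosen with earlier results of these data known. Named were the members, KLF5, in each list the called genes (at most 6 per direction) and the 2 of highest level, genes within 250 kb of ALPP, genes with overlapping exons, and the 5 genes most like ALPP. Libraries of a group differed by more than sampling noise (chi-square per degree of freedom 4.33 to 30.4).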

Additional observations from a re-analysis of the deposited data

How the results depend on the processing

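The directions of the 5 tested ectoenzyme genes held under every alternative that tested them, and ALPP stayed called throughout (log2 fold change -3.54 to -3.51 across other settings, -3.69 to -3.35 with a library left out). ENPP1 ranged from -2.69 (DESeq2) to -1.71 (pseudocount 5); its call was lost without sh-NC replicate 1 (-2.13) or 3 (-2.16), and it was not tested when 10 reads were required in every library. That filter left 231 genes called lower beside 241 higher (533 and 301 otherwise), 1 of the ectoenzyme genes, 0 of the lysophosphatidate list and 2 other GPI-anchored genes lower. With no filter on low counts 811 genes were called lower, 2 of them purine receptors (P2RY1 and P2RY12). The list of other GPI-anchored genes then had 6 lower calls, with GPC6 and FOLR1 added. In that setting ALPG, ALPL, ENPP2 and ENTPD3 were not called (limma adjusted p 0.361, 0.220, 0.863 and 0.875). With a pseudocount of 0.1, 1 gene of anchor assembly (PIGZ) was called higher. With no fold threshold 955 genes were higher and 1083 lower: 1 ectoenzyme gene, 3 purine enzymes, 2 purine receptors, 3 lysophosphatidate genes, 2 of anchor assembly and 5 other GPI-anchored genes higher, and 2 of anchor assembly and 7 other GPI-anchored genes lower. Leaving out each library gave 253 to 337 genes called higher and 461 to 620 lower; ectoenzyme genes lower 1 to 2, purine enzymes lower 0 to 1 (SLC29A2), purine receptors higher 0 to 1 and lower 0 to 1, anchor assembly higher 0 to 1 (PIGZ) and other GPI-anchored genes lower 3 to 4. The cause of these shifts was not tested, beyond the fewer or further genes that a filter tests. Same-numbered libraries correlated at 0.220, 0.00715 and 0.161. This was the highest value for sh-NC replicates 1 and 3, while sh-NC replicate 2 correlated at 0.0169 with sh-KLF5 replicate 1. The labels give only a replicate number, and whether same-numbered libraries were prepared together cannot be told from these values. With the replicate block 327 genes were called higher and 567 lower, 2 ectoenzyme genes among them, and no list count changed. The genes with at most 5 reads are limited by depth.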
